A study of Homo sapiens with 18 samples.

Results

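The comparison set 3 arrays of MCF10A cells expressing Snail against 3 arrays of MCF10A cells carrying the empty vector, 6 of the 18 samples in the series. All 18417 genes with a usable probe set were described, and the question was which programmes moved while CDH1, the gene of the epithelial adhesion molecule E-cadherin, was largely kept. MCF10A is a spontaneously immortalised, non-tumorigenic human breast epithelial line. Both groups were transfected lines selected as stable clones, per the series design text, and were grown in DMEM/F12 with 10% FBS and harvested in log-phase growth. How many clones each group came from is not stated, so an effect of Snail and a difference between clones cannot be told apart. HMLE cells, another immortalised breast epithelial line, carried Snail (3 arrays) or vector (3 arrays) in the same way and are used below only to show where MCF10A differed.

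Snail, the product of SNAI1, is a zinc-finger repressor that binds E-box sequences in the promoters of epithelial genes, CDH1 among them. Epithelial-mesenchymal transition (EMT) is the programme in which epithelial cells lose junctions and apical-basal polarity, and gain a fibroblast-like cytoskeleton and matrix. A partial EMT is a state in which mesenchymal genes are on while E-cadherin and other epithelial genes are still expressed.

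Levels are log2 values that the authors made with RMA, a background correction, quantile normalization and probe summary, so a step of 1 is 2-fold. Differences are Snail minus vector on the log2 scale ± SE from limma, with p adjusted by Benjamini-Hochberg over all 18417 genes. A gene is said to have risen or fallen where that adjusted p was under 0.05. By this rule 1963 genes rose (10.7% of those tested) and 2210 fell (12% of those tested), 22.7% in all. The shares of 10.7% and 12% are the background for every list count below. At a change of at least 2-fold, 132 genes rose (0.717%) and 197 fell (1.07%), 329 in all (1.79%). The median difference over all genes was -0.024. Array medians of these 6 samples lay between 7.698 and 7.771, and correlations across probe sets between 0.9946 and 0.9968 among the Snail arrays, against 0.9952 to 0.9963 among the vector arrays. Nothing in the labels says that the 3 arrays of a group came from separate cultures. The p-values then rest on array-to-array spread that may be technical, and precision is limited by how few arrays there are.

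SNAI1 stood at 12.50, 12.41 and 12.54 in the Snail arrays, against 8.43, 8.36 and 8.17 in the vector arrays. The groups lay far apart, with a difference of 4.17 ± 0.09 (adjusted p = 3.04e-14), the largest rise of any gene, so SNAI1 followed the labels. The other sample check concerned line identity: MTAP, a 9p21 gene known to be deleted in MCF10A, lay between 5.92 and 6.19 in the Snail arrays and between 5.69 and 6.39 in the vector arrays, against a mean of 10.26 in HMLE vector arrays. KRT5 and KRT14, the keratin pair of basal epithelial cells, had levels above 13 in all 6 arrays.

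CDH1 was at 11.72, 11.66 and 11.72 in the Snail arrays and at 12.30, 12.21 and 12.29 in the vector arrays. The Snail arrays were all lower, and the difference of -0.57 ± 0.11 passed the test (1.48-fold lower, 95% interval -0.80 to -0.33, adjusted p = 0.00112). In HMLE the same contrast was -5.64 ± 0.11, with means of 6.62 in HMLE Snail and 12.27 in HMLE vector arrays. The effect in MCF10A minus that in HMLE was 5.07 ± 0.16 (adjusted p = 2.27e-13). CDH1 thus fell in both lines and stayed near 12 in MCF10A. The plot of levels by array sets it beside SNAI1 and other EMT genes.

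**Figure D1:**
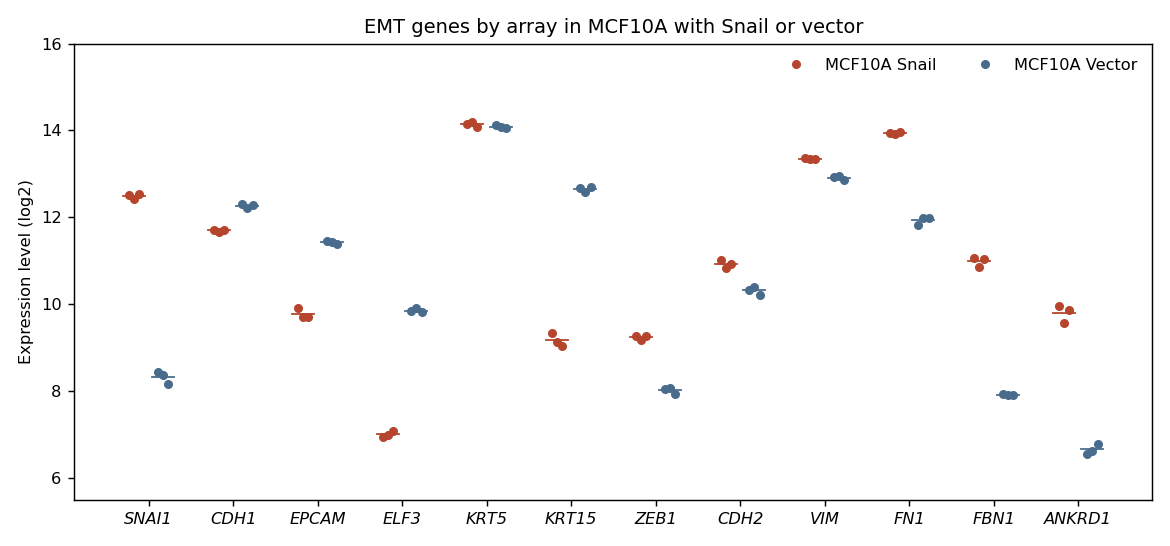
Log2 expression level of 12 EMT genes in each MCF10A array, with the 3 Snail arrays left of the 3 vector arrays for each gene and a line at the group mean. SNAI1, FN1, FBN1 and ANKRD1 sit far higher with Snail, ELF3 and KRT15 far lower, CDH1 slightly lower, and the KRT5 points overlap.

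EPCAM, an epithelial adhesion molecule often used to sort epithelial cells, was at 9.91, 9.71 and 9.70 with Snail, against 11.46, 11.42 and 11.38 with vector. It fell by 1.65 on the log2 scale (SE 0.11, adjusted p = 5.4e-09), a larger step than that of CDH1. CDH2, the gene of N-cadherin that marks mesenchymal cells, was at 11.01, 10.84 and 10.93 with Snail, against 10.34, 10.40 and 10.22 with vector, a rise of 0.61 ± 0.07 (adjusted p = 3e-06). VIM, which encodes the mesenchymal filament protein vimentin, lay between 13.33 and 13.37 with Snail and between 12.86 and 12.95 with vector, a rise of 0.44 ± 0.04 (adjusted p = 9.59e-07). CDH1 and CDH2 therefore moved in opposite directions and each by less than 2-fold, in contrast to EPCAM.

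Genes of the junctions between epithelial cells mostly fell, with list medians smaller in size than the fall of CDH1. Of 11 measured adherens junction genes, 8 fell and 1 rose (median -0.273), of 19 tight junction and polarity genes 12 fell and none rose (median -0.336), and of 11 desmosome genes 9 fell and none rose (median -0.459). Only 3 of these falls reached 2-fold. CXADR, a tight junction receptor best known as the coxsackievirus and adenovirus receptor, had the largest of them, at -1.71 ± 0.12. TJP3, a scaffold of tight junctions, fell by 1.12 on the log2 scale, and DSC2, a desmosomal cadherin, fell by 1.14.

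DSC2 stood at 11.10, 11.06 and 11.17 in the Snail arrays, against 12.22, 12.22 and 12.31 in the vector arrays. Its neighbours DSC3 and DSG3, cadherins of the same gene cluster, also fell, at -0.78 and -0.76 on the log2 scale. All 7 measured desmosomal cadherins of this cluster, DSC1, DSC2, DSC3, DSG1, DSG2, DSG3 and DSG4, fell as one run of neighbouring genes on chromosome 18. DSG1 lost its call under 7 of the alternative settings and DSC1 under 3. DSP, the desmosomal linker to keratin, differed by -0.12 and did not pass. NECTIN3, an immunoglobulin-like adhesion molecule, went the other way among adherens junction genes: it lay at 10.49, 10.34 and 10.38 with Snail and at 9.39, 9.35 and 9.19 with vector, a rise of 1.09 ± 0.09. The catenin gene CTNNB1 and the vinculin gene VCL each differed by 0.04, short of the test.

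Hemidesmosome and laminin-332 genes, which anchor basal cells to the basement membrane, did not follow the other junctions. Among 6 measured, 4 rose and 1 fell (median 0.345). The fall, of ITGA6, did not pass after median centring, with only the groups compared, or without Snail replicate 1 or 3 or vector replicate 2 or 3. LAMB3, a laminin-332 chain, lay at 12.27, 12.16 and 12.18 with Snail and at 11.69, 11.64 and 11.67 with vector (0.53 ± 0.08). ITGB4, the integrin beta4 chain of hemidesmosomes, rose by 0.29 ± 0.07. In HMLE both genes fell with Snail, at -3.09 (LAMB3) and -3.26 (ITGB4) on the log2 scale, and the effect in MCF10A minus that in HMLE was 3.62 ± 0.11 for LAMB3 (adjusted p = 2.58e-13) and 3.55 ± 0.10 for ITGB4 (adjusted p = 9.56e-14).

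The epithelial surface and trafficking list, whose members sort proteins to the apical membrane or work at the cell surface, fell in 15 of 21 measured members with no rise (median -0.754). Besides EPCAM, the largest were ST14, a membrane protease known as matriptase, at -1.53 ± 0.18, and RAB25, a recycling GTPase of epithelial cells. RAB25 was at 6.17, 6.07 and 6.39 with Snail, against 7.66, 7.58 and 7.88 with vector (-1.5 ± 0.09, adjusted p = 2.52e-09). Other members did not pass the test. MAL2, an apical transport protein, stayed near 14 in all arrays (-0.15 ± 0.11, adjusted p = 0.389), and the surface antigen gene CD24 differed by 0.02 ± 0.16 (adjusted p = 0.966).

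Transcription factors that hold epithelial identity fell in 11 of 17 measured cases, with no rise (median -0.440). ELF3, an ETS factor of epithelia, led them at 6.93, 6.99 and 7.07 with Snail, against 9.83, 9.91 and 9.82 with vector. That is a difference of -2.85 ± 0.11 (adjusted p = 8.43e-12). ZNF750, a factor of epidermal differentiation, fell by 2.08 on the log2 scale, the grainyhead factors GRHL1 and GRHL3 fell (-1.29 and -1.13), and OVOL1, a repressor of mesenchymal genes, fell by 1.01. GRHL2 had levels between 5.89 and 6.16 in all 6 arrays and did not pass (-0.10). ESRP2, a splicing regulator of epithelial isoforms, fell by 0.44.

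Promoter windows of 4 of the genes that fell are printed here because each holds the E-box bound by Snail, CAGGTG or its reverse complement CACCTG, shown in capitals. They were picked after the values were seen. Each is the 250 bases before the transcription start in RefSeq, build GRCh38.p14, written 5′ to 3′ on the gene's strand, here the plus strand throughout. The windows are chr1:202010337-202010586 for ELF3, chr1:156060910-156061159 for RAB25, chr1:24319107-24319356 for GRHL3 and chr1:153030953-153031202 for SPRR1B, a cornified envelope gene described below.
ELF3: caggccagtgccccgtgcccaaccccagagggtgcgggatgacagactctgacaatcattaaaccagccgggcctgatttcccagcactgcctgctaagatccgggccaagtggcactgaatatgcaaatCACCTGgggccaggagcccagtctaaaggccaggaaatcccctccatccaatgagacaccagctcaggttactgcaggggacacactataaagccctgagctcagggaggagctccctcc
RAB25: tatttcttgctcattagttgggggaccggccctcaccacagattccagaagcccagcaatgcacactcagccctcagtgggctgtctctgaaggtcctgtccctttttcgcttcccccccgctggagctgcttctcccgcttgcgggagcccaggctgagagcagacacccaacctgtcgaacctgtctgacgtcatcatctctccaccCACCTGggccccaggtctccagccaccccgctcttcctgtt
GRHL3: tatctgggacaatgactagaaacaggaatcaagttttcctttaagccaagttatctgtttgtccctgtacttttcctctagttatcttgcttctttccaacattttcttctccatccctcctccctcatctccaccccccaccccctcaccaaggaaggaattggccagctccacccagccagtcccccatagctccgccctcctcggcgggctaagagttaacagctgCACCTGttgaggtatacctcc
SPRR1B: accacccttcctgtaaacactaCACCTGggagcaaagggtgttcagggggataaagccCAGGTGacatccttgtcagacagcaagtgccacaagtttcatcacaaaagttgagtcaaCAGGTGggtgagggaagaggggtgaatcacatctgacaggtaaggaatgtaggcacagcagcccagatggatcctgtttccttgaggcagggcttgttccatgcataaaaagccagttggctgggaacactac
Counting back from the start, the E-box spans -120 to -115 in ELF3, -41 to -36 in RAB25 and -21 to -16 in GRHL3. SPRR1B has 3 of them, the nearest at -133 to -128.

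Over windows of 300 bases (250 before and 50 after the start), searched on both strands, the E-box was found in 56 of the 145 windows available among the 197 genes that fell at least 2-fold, or 38.6%. It was in 15 of 102 windows of genes that rose at least 2-fold (14.7%), and in 2792 of all 14237 windows (19.6%). Among list members it was in 9 of 15 windows of epithelial surface and trafficking genes (60%), 5 of 9 of kallikreins (55.6%) and 4 of 9 of desmosome genes (44.4%). Other lists gave smaller shares, as for epithelial transcription regulators (4 of 11, 36.4%), tight junction genes (4 of 14, 28.6%) and adherens junction genes (2 of 8, 25%). YAP and TEAD targets, of which none fell, held it in 4 of 16 windows (25%) and interferon-stimulated genes in 3 of 30 (10%). The AP-1 motif TGANTCA was in 17 of 145 windows of falls (11.7%) and 6 of 102 of rises (5.88%), against 795 of all 14237 (5.58%). A match is a string of letters in a window, and binding was not measured. CDH1, EPCAM, CDH3 and KRT15 had no window in the table used.

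**Figure D2:**
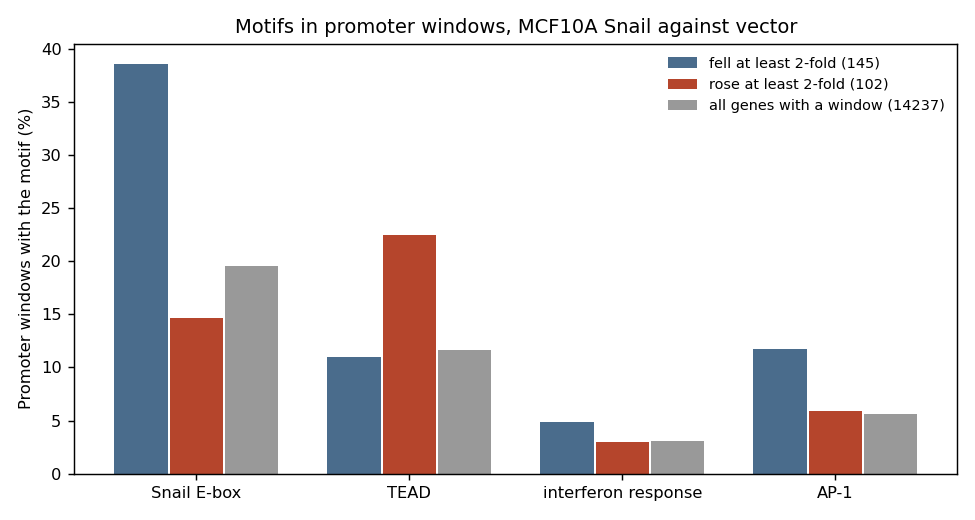
Share of promoter windows (%, y axis) holding each of 4 motifs, for genes that fell at least 2-fold, genes that rose at least 2-fold and all genes, with the number of windows in the legend. The Snail E-box stands at 38.6% among falls and 14.7% among rises against 19.6% of all windows, and the TEAD motif at 11% among falls and 22.5% among rises against 11.6% of all windows.

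Keratins split by gene. Of 4 measured basal keratins 2 fell, of 6 luminal and simple keratins 3 fell, and none rose, where 12% of all genes fell. In each list 1 fall reached 2-fold. The luminal falls numbered 1 without Snail replicate 2, vector replicate 1 or vector replicate 2. KRT6A, KRT6B, KRT6C and KRT17 were not measured. KRT15, a keratin of basal and progenitor keratinocytes, was at 9.34, 9.14 and 9.03 in the Snail arrays and at 12.66, 12.57 and 12.70 in the vector arrays. It fell by 3.48 on the log2 scale (SE 0.12, 11.1-fold lower, adjusted p = 3.52e-12). KRT5 was at 14.15, 14.20 and 14.07 with Snail, against 14.12, 14.07 and 14.06 with vector, and KRT14 lay between 13.22 and 13.30 with Snail and between 13.13 and 13.39 with vector. These groups overlapped for both genes, with intervals of the difference of -0.12 to 0.23 for KRT5 and -0.16 to 0.21 for KRT14. In HMLE both fell, KRT5 at -4.92 and KRT14 at -4.17 on the log2 scale. The effect in MCF10A minus that in HMLE was 4.98 ± 0.12 for KRT5 and 4.19 ± 0.12 for KRT14, with limma adjusted p of 8.62e-15 and 9.56e-14.

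Several of the deepest falls were in secreted and barrier products. SCGB1A1, the secretoglobin of airway club cells, was at 7.96, 7.74 and 8.03 with Snail, against 12.28, 12.16 and 12.33 with vector. At -4.35 ± 0.10 (20.4-fold lower, adjusted p = 3.04e-14) this was the largest fall of any gene. AZGP1, a secreted zinc-binding glycoprotein, was at 6.18, 6.26 and 6.33 with Snail and at 9.96, 9.91 and 10.05 with vector (-3.72 ± 0.14). MUC16, a membrane mucin, fell by 1.97 on the log2 scale. In their list 5 of 24 secretory and luminal products fell (20.8%, against 12% of all genes) and none rose (median -0.074). At least 2-fold falls numbered 4, where 1.07% of all genes fell that far. The other 19 members did not pass, LTF and PIGR (each -0.10) among them.

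Kallikreins, serine proteases of the epidermis that cut desmosomes during shedding, fell almost as a block: 9 of 10 measured fell, none rose, and the median was -1.212. KLK7 was at 8.61, 8.59 and 8.72 with Snail, against 12.45, 12.33 and 12.40 with vector (-3.75 ± 0.09, 13.5-fold lower, adjusted p = 4.21e-14). KLK10, KLK5 and KLK8 also fell, at -2.44, -1.99 and -1.88. Their genes lie side by side on chromosome 19, where KLK5, KLK6, KLK7, KLK8, KLK9, KLK10 and KLK11 made a run of 7 neighbouring measured genes that all fell. In the whole genome order, 20 runs of at least 4 neighbours called the same way were found, and 3 runs of 7. The third such run, on chromosome 1, rose and held CENPL and small nucleolar RNA genes.

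Inhibitors of epithelial proteases also fell, in 8 of 11 measured cases against 1 rise (median -0.700). SERPINB4 was at 6.96, 7.25 and 6.83 with Snail, against 10.09, 10.01 and 10.38 with vector (-3.15 ± 0.19), and SERPINB3, its near-identical neighbour, fell by 1.66 on the log2 scale. Probes may not tell this pair apart. SERPINA3, an acute-phase protease inhibitor, fell by 2.59. SPINK6, a kallikrein inhibitor, was the member that rose (1.02).

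The calcium-binding partners S100A8 and S100A9, which form the antimicrobial protein calprotectin, fell together. S100A8 was at 10.81, 10.76 and 10.64 with Snail, against 13.24, 13.13 and 13.36 with vector (-2.50 ± 0.12), and S100A9 fell by 2.39. Of 13 S100 genes measured, 5 fell and none rose, and S100A4, a marker of fibroblasts, differed by 0.05 without passing. Cornified envelope genes, which build the barrier of squamous cells, fell in 6 of 18 cases and rose in 1. SPRR1B, whose promoter is printed above, was at 11.08, 10.96 and 10.92 with Snail, against 12.84, 13.06 and 12.72 with vector (-1.89 ± 0.12). TGM1, the transglutaminase that links such envelopes, fell by 2.27, and SPRR2A, one of a set of near-identical genes, fell by 2.27 too. Involucrin (IVL) and filaggrin (FLG) differed by -0.13 and 0.00.

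**Figure D3:**
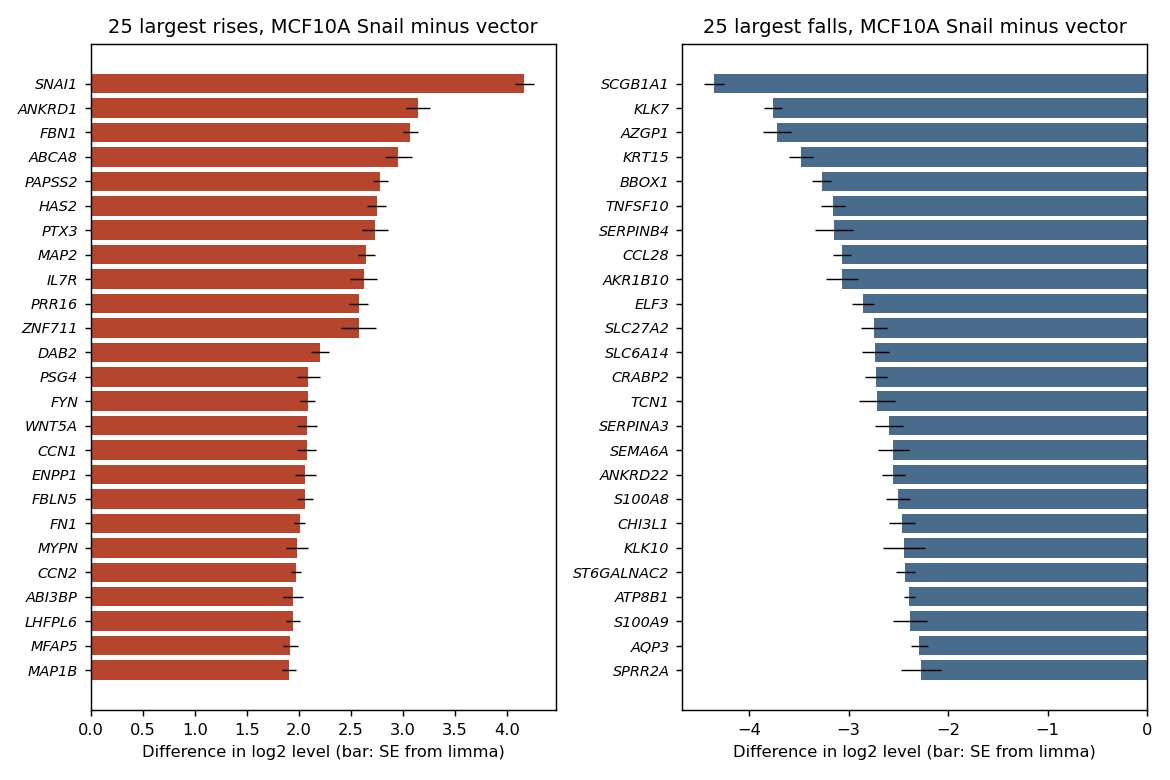
The 25 largest rises (left) and 25 largest falls (right) among genes that passed the test without overlap between groups, as difference in log2 level, MCF10A Snail minus vector, with limma SE as error bars. Rises are led by SNAI1 (4.17), ANKRD1 (3.14) and FBN1 (3.07), falls by SCGB1A1 (-4.35), KLK7 (-3.75) and AZGP1 (-3.72).

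Among EMT transcription factors other than SNAI1, the ZEB pair rose. ZEB1, a repressor of CDH1, was at 9.27, 9.18 and 9.27 with Snail, against 8.04, 8.07 and 7.93 with vector (1.23 ± 0.06, adjusted p = 2.09e-10). ZEB2, its relative, was at 9.40, 9.20 and 9.29 with Snail and at 8.16, 7.97 and 8.0 with vector (1.25 ± 0.07, adjusted p = 4.73e-10). SNAI2, the gene of Slug, overlapped between the groups at levels of 13.24 to 13.28 with Snail and 13.16 to 13.24 with vector. In all, 4 of 15 such factors rose, SNAI1 included (26.7%, against 10.7% of all genes), and 2 fell (13.3%, against 12%). PRRX1 and TWIST2 did not pass (-0.16 and 0.04). ZEB1 rose by 3.85 and ZEB2 by 3.70 in HMLE.

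Matrix genes rose in several lists. FBN1, which encodes fibrillin-1 of microfibrils, was at 11.06, 10.85 and 11.04 with Snail, against 7.92, 7.90 and 7.92 with vector (3.07 ± 0.07, 8.4-fold, adjusted p = 4.04e-14). FBLN5, an elastic fibre protein, rose by 2.06, and MFAP5, a microfibril protein, by 1.92. Across 17 elastic fibre and microfibril genes 9 rose and 1 fell (median 0.303). ELN, the elastin gene itself, differed by -0.04 and did not pass.

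FN1, which encodes fibronectin, was at 13.93, 13.92 and 13.96 with Snail and at 11.82, 11.98 and 11.99 with vector. It rose by 2.01 ± 0.05 (4.02-fold, adjusted p = 6.17e-14). In HMLE, FN1 already averaged 14.48 with Snail and 14.30 with vector (0.18 ± 0.05), and the effect in MCF10A minus that in HMLE was 1.82 ± 0.07 (adjusted p = 4.06e-12). With it rose 8 others of 14 fibronectin, matricellular and leucine-rich matrix genes, while none fell (median 0.569). They included SPP1 (osteopontin) at 1.85, DCN (decorin) at 1.75, VCAN (versican) at 1.57 and SPARC at 1.12. TNC and BGN differed by 0.19 and 0.11 and did not pass.

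Interstitial collagens moved unevenly, with 6 of 14 rising, none falling and a median of 0.188. COL8A1 was at 8.49, 8.36 and 8.31 with Snail, against 6.59, 6.70 and 6.6 with vector (1.76 ± 0.15), and COL12A1 rose by 1.57 and COL6A3 by 1.04. For type I collagen, a main fibroblast product, COL1A1 rose by 0.33 and COL1A2 did not pass. With only the 6 MCF10A arrays in the fit, COL1A1 did not pass either (limma adjusted p = 0.0678). COL1A2 was at 7.57, 7.5 and 7.61 with Snail and at 7.5, 7.49 and 7.68 with vector (0.01 ± 0.08, adjusted p = 0.964), where HMLE showed a rise of 4.60, and the effect in MCF10A minus that in HMLE was -4.59 ± 0.11 (limma adjusted p = 8.62e-15). COL3A1 differed by -0.14 and did not pass. Basement membrane genes rose in 7 of 17 cases with no fall, led by LAMA4 (0.79) and COL4A1 (0.60). Of 15 collagen-modifying enzymes 6 rose and none fell, led by PLOD2 (0.67). Without vector replicate 2 that count was 3, as it was with only the 2 groups compared in the fit.

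Single genes of hyaluronan synthesis and sulfation rose by large steps. HAS2, a hyaluronan synthase, was at 8.88, 8.57 and 8.54 with Snail, against 5.94, 5.89 and 5.92 with vector (2.75 ± 0.09, adjusted p = 1.91e-12). Its paralogue HAS3 fell by 0.57 on the log2 scale. PTX3, a pentraxin that crosslinks hyaluronan, rose by 2.73, and of 10 hyaluronan genes 5 rose and 3 fell (median 0.282). PAPSS2, which makes the sulfate donor for proteoglycans, was at 11.87, 11.73 and 11.82 with Snail, against 9.19, 9.01 and 8.88 with vector (2.78 ± 0.07), and SULF1, a heparan sulfate endosulfatase, rose by 1.67. Of the 17 genes of that list 6 rose and 4 fell, and without Snail replicate 3 only 2 fell.

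Contractile and intermediate filament genes rose in 11 of 18 cases and fell in 1 (median 0.246), all but 2 of the rises by under 2-fold. The fall, of CNN3, was lost under 8 alternatives, among them leaving out Snail replicate 2 or 3 or any vector replicate. TAGLN, an actin-binding protein of smooth muscle, was at 9.72, 9.45 and 9.61 with Snail, against 8.16, 8.30 and 8.32 with vector (1.33 ± 0.11), and MYL9, a myosin light chain, rose by 1.12. ACTA2, smooth muscle actin, differed by 0.06 and did not pass. Mesenchymal surface markers rose in 5 of 9 cases without a fall. FAP, fibroblast activation protein, was at 10.20, 10.04 and 10.04 with Snail and at 8.42, 8.44 and 8.39 with vector (1.68 ± 0.10), whereas in HMLE it differed by -0.35. The difference of these effects was 2.03 ± 0.15 (limma adjusted p = 8.53e-09). Integrin subunits went both ways, 6 rising and 4 falling of 15. ITGB3, the beta3 chain of the vitronectin receptor, rose by 1.31 and ITGA5, of the fibronectin receptor, by 0.49, while ITGA2, of a collagen receptor, fell by 0.83 and ITGB6, an epithelial chain, fell by 0.39.

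Markers of other cell types were set beside these matrix and surface genes, since decorin, lumican and FAP mark fibroblasts too. Of 15 fibroblast markers 5 rose and none fell (COL1A1, LUM, POSTN, FAP and DCN), with summed linear levels of 5679.1 to 5839.4 in the Snail arrays, against 3151.5 to 3330.5 in the vector arrays. PDGFRA, PRRX1, COL1A2 and COL3A1 were among the 10 markers of this list that did not pass. PDGFRA lay between 6.24 and 6.39 with Snail and between 6.16 and 6.6 with vector. Among 12 endothelial markers only PECAM1 changed (-0.87 ± 0.11). Of 13 leukocyte markers 2 rose (15.4%, against 10.7% of all genes) and 3 fell (23.1%, against 12%). Only 1 rose under 8 of the alternatives, among them leaving out Snail replicate 1 or 3 or any vector replicate. CD14, a monocyte receptor also made by epithelia, fell by 1.81 on the log2 scale, while PTPRC, the pan-leukocyte marker, stayed between 4.71 and 4.82 with Snail and 4.52 and 4.72 with vector. Mammary luminal markers fell in 5 of 12 cases and none rose, led by FOXA1 (-0.97) and AGR2 (-0.95), with summed linear levels of 13366.2 to 14204.5 in the Snail arrays, against 15850.0 to 16889.7 in the vector arrays. Without Snail replicate 1, Snail replicate 2 or vector replicate 1 that count was 3, and without vector replicate 2 it was 2. Mammary basal and myoepithelial markers rose in 5 of 12 cases, led by MYLK (0.84), and fell in 1 (ITGA6, as above), with sums of 61262.5 to 63707.7 in the Snail arrays, against 59001.5 to 60270.9 in the vector arrays. The part of these markers in the matrix results was not tested. A change in the mix of cells and a change in RNA per cell cannot be told apart in bulk RNA.

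Targets of YAP and TEAD, the transcription pair that answers to cell spreading and tension, rose in 18 of 22 measured cases and none fell (median 0.505). The list overlaps others in NT5E, F3, AXL, TGFB2, IGFBP3 and GADD45A. ANKRD1, a nuclear ankyrin-repeat protein, was at 9.95, 9.58 and 9.87 with Snail, against 6.55, 6.62 and 6.79 with vector (3.14 ± 0.12, 8.84-fold, adjusted p = 8.37e-12). CCN1 and CCN2, secreted matricellular proteins known as CYR61 and CTGF, rose by 2.07 and 1.97. CCN2 was at 12.26, 12.18 and 12.17 with Snail and at 10.23, 10.28 and 10.19 with vector.

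The TEAD motif GGAATG, or its reverse complement CATTCC, was in 7 of 16 windows of this list (43.8%) and in 23 of 102 windows of genes that rose at least 2-fold (22.5%), against 1655 of all 14237 (11.6%). ANKRD1 and CCN2 are printed because their windows held several copies, shown in capitals. Both are on the minus strand, at chr10:90921088-90921337 for ANKRD1 and chr6:131951373-131951622 for CCN2 (GRCh38.p14), and were chosen after the values were seen.
ANKRD1: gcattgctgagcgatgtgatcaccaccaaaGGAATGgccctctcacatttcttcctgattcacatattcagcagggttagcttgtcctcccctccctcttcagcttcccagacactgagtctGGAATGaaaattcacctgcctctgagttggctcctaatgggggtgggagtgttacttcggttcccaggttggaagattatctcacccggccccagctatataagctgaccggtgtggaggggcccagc
CCN2: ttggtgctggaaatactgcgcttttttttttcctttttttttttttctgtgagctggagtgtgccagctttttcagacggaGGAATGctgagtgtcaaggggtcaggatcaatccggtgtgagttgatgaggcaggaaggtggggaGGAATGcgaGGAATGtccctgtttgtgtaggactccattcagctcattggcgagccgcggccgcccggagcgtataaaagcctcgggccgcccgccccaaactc
The copies begin at -220 and -128 in ANKRD1 and at -169, -104 and -95 in CCN2. The ANKRD1 window also held 1 Snail E-box, in lower case here, and the window of SPRR1B, which fell, held 1 TEAD motif. Binding was not measured.

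TGFB2, a TGF-beta ligand, was at 11.80, 11.74 and 11.81 with Snail, against 10.38, 10.39 and 10.34 with vector (1.41 ± 0.06, adjusted p = 1.44e-11). PMEPA1, a TGF-beta-induced inhibitor of the pathway, rose by 1.03, and INHBA, an activin subunit, by 0.73. Of 22 TGF-beta and activin genes 5 rose (22.7%, against 10.7% of all genes) and 2 fell (9.09%, against 12%). These counts depended on the settings: 10 rose after quantile normalization or with array weights and 8 after median centring, and 1 fell with only the groups compared or without Snail replicate 2, vector replicate 1 or vector replicate 3. SMAD7, a feedback target, differed by -0.10 and did not pass. Of 16 BMP and ID genes 5 fell (31.2%, against 12% of all genes) and 2 rose (12.5%, against 10.7%). ID2, a dominant-negative helix-loop-helix factor and BMP target, was at 8.97, 8.61 and 9.24 with Snail, against 10.48, 10.59 and 10.81 with vector (-1.69 ± 0.14), and ID1 and ID3 fell (-0.74 and -0.69). In HMLE, ID2 rose by 2.78, a difference of effects of -4.47 ± 0.20 (limma adjusted p = 1.86e-11).

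Notch genes fell in 9 of 14 cases and rose in 1 (median -0.333), with HES1, the classical Notch target, at 10.35, 10.60 and 10.57 with Snail, against 11.60, 11.51 and 11.61 with vector (-1.07 ± 0.11), and the receptor NOTCH3 at -0.79. NOTCH2 was the exception and rose by 0.40. Of 11 EGF receptors and ligands 6 fell and 2 rose. HBEGF, an EGF receptor ligand, fell (-1.53), as did ERBB3, a receptor of neuregulin (-0.89), while the receptor EGFR and the ligand NRG1 rose by 0.50 and 0.78. Leaving out Snail replicate 3, vector replicate 1 or vector replicate 3 left 3 falls in this list. Growth factor receptors and ligands of mesenchyme were divided, with 5 of 22 rising and 7 falling (median -0.018). The lowest was FGFR3, a fibroblast growth factor receptor of epithelia, which was at 9.57, 9.49 and 9.27 with Snail, against 11.54, 11.45 and 11.60 with vector (-2.09 ± 0.09).

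WNT5A, a ligand of non-canonical Wnt signalling, was at 10.05, 9.84 and 9.85 with Snail, against 7.95, 7.79 and 7.77 with vector (2.08 ± 0.10, adjusted p = 1.2e-10). The receptor ROR1 rose by 0.61 and the Wnt inhibitor DKK1 by 0.97. Across 25 Wnt genes 6 rose (24%, against 10.7% of all genes) and 4 fell (16%, against 12%). There were 2 falls when Snail replicate 1, Snail replicate 3 or vector replicate 1 was left out. The canonical target AXIN2 differed by -0.25 and did not pass. Among IGF genes 5 of 12 rose and none fell, led by the binding proteins IGFBP3 (1.89) and IGFBP4 (1.23).

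Of 38 interferon-stimulated genes 18 fell, 2 rose and 18 did not pass the test (median -0.220). OAS1, a sensor that activates RNase L, was at 8.80, 8.97 and 8.71 with Snail, against 10.45, 10.26 and 10.40 with vector (-1.54 ± 0.08). IFITM1, a membrane restriction factor, fell by 1.5 on the log2 scale. BST2, the gene of tetherin, fell by 1.12, and IFIH1, the RNA sensor MDA5, fell by 1.13. The neighbours IFI44L and IFI44 rose, by 1.45 and 0.74, and without Snail replicate 1 or vector replicate 2 only 1 of the pair passed. The core genes MX1 and ISG15 differed by -0.01 and 0.01. In HMLE, IFITM1 rose by 1.61, and the effect in MCF10A minus that in HMLE was -3.11 ± 0.13 (limma adjusted p = 6.92e-12).

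An interferon-response motif (GAAA, any 2 bases, GAAA, or its reverse complement) was in 19 of 30 windows of this list (63.3%), against 433 of all 14237 (3.04%). IFIH1 is shown as a member that fell and carried 3 copies, 2 of which overlap in its first stretch of capitals. The window is on the minus strand at chr2:162318685-162318934 (GRCh38.p14).
IFIH1: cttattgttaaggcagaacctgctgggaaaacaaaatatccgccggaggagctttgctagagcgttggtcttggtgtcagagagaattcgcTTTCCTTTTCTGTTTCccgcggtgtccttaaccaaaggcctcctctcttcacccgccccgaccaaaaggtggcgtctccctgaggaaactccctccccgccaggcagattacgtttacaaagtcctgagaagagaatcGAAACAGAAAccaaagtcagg
Among all genes that fell at least 2-fold, it was in 7 of 145 windows (4.83%).

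Among cytokines, single genes fell while NF-kB targets rose in part. TNFSF10, the death ligand TRAIL, was at 7.31, 7.30 and 7.42 with Snail and at 10.57, 10.32 and 10.62 with vector (-3.15 ± 0.12, 8.9-fold lower, adjusted p = 1.51e-11), and CCL28, a mucosal chemokine, fell by 3.07. Inflammatory cytokines and NF-kB targets rose in 9 of 23 cases and fell in 1 (median 0.109). The single fall was lost without Snail replicate 3, vector replicate 1 or vector replicate 3, and falls numbered 2 without Snail replicate 1. ICAM1, a leukocyte adhesion molecule, was at 11.92, 11.79 and 11.74 with Snail, against 10.10, 9.93 and 9.99 with vector (1.81 ± 0.06), and the chemokines CXCL1 and CXCL8 rose by 0.96 and 0.81. In the interleukin 1 family IL1RL1, the interleukin 33 receptor gene, rose by 1.75 and the antagonist gene IL1RN fell by 1.65.

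Cell cycle and DNA replication genes shifted up by small steps, 17 of 33 rising and none falling (median 0.184). The rise was led by CCNE2, a G1/S cyclin, and RRM2, a subunit of ribonucleotide reductase, at 0.55 and 0.54. MKI67, the proliferation marker Ki-67, was at 11.54, 11.52 and 11.55 with Snail, against 11.01, 11.20 and 11.01 with vector (0.46 ± 0.06). In HMLE 27 of these genes fell and 1 rose, where 24.8% of all genes fell and 22.9% rose, and for 30 of the 33 the effect was higher in MCF10A, against 20.2% of all genes. Cholesterol synthesis genes rose in 10 of 17 cases and fell in 1, led by LSS (0.59) and IDI1 (0.54).

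Energy genes moved down by small steps. Of 27 respiratory chain and ATP synthase genes 13 fell and none rose (median -0.182), or 22 fell with array weights. Of 23 glycolysis and hypoxia genes 11 fell and 2 rose (median -0.122), and without Snail replicate 3 the falls numbered 7. The glucose transporter gene SLC2A1 fell by 0.68 and NDRG1, a hypoxia-responsive gene, fell by 0.80, while ADM, adrenomedullin, rose by 1.12.

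**Figure D4:**
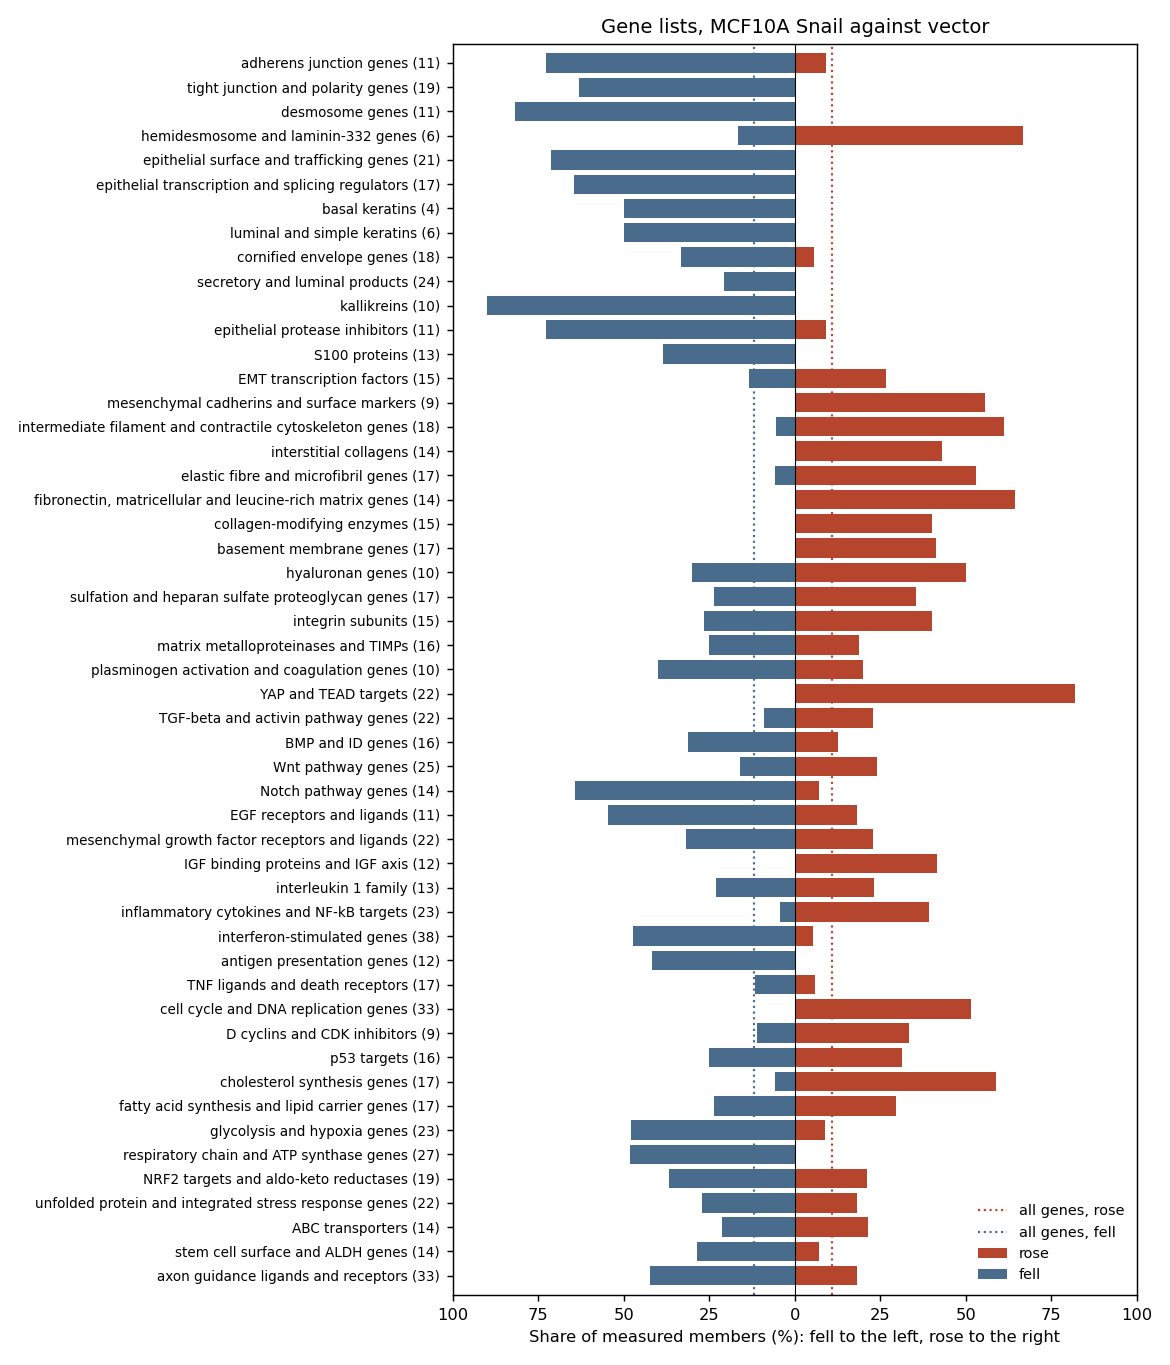
Share of measured members (%, x axis) that fell (left of 0) or rose (right of 0) in each gene list, number measured in brackets, with dotted lines at the shares of all genes that fell (12%) and rose (10.7%). Kallikreins and the desmosome, adherens and tight junction lists lie to the left, and YAP and TEAD targets, the collagen, elastic fibre and fibronectin lists and cell cycle genes to the right.

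Some of the largest changes lay outside these programmes. ABCA8, a lipid transporter, was at 8.36, 7.87 and 8.14 with Snail, against 5.07, 5.06 and 5.37 with vector (2.95 ± 0.13, adjusted p = 6.41e-11). MAP2, a microtubule-associated protein best known in neurons, rose by 2.65, IL7R, the interleukin 7 receptor, by 2.62, and the endocytic adaptor gene DAB2 by 2.2. BBOX1, the last enzyme of carnitine synthesis, was at 5.52, 5.60 and 5.33 with Snail and at 8.92, 8.57 and 8.76 with vector (-3.27 ± 0.09). AKR1B10, an aldo-keto reductase, fell by 3.07, and CRABP2, a retinoic acid carrier, fell by 2.72. AQP3, a water and glycerol channel, fell by 2.29.

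Of the 329 genes changed at least 2-fold in MCF10A, 198 were also changed at least 2-fold between Snail and vector in HMLE. That is 60.2% of the MCF10A set and 12.1% of the 1635 genes of the HMLE set. Over all genes, 8.88% changed at least 2-fold in HMLE. The lines have separate vector arrays. Of these 198, 174 moved in the same direction and 24 in opposite directions. The opposite set included MFAP5 and SPP1, which rose in MCF10A and fell in HMLE, and ID2 and IFITM1, which did the reverse. A test of the difference of effects passed for 285 of the 329. That share says little about the lines, since the 329 were picked by their effect in MCF10A, a part of the tested difference. Over all genes 20.2% had a higher and 19.9% a lower effect in MCF10A, and 8.62% (1587 genes) differed by at least 1 on the log2 scale. By list, the effect was higher in MCF10A for 10 of 11 desmosome genes and 16 of 21 epithelial surface genes. A higher effect was not always a smaller fall, as CD24 (0.02) and MAL2 (-0.15) did not pass in MCF10A. The effect was lower for 12 of 17 elastic fibre genes and 13 of 18 contractile genes. Among kallikreins the effect was higher for 1 of 10 and lower for 3.

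**Figure D5:**
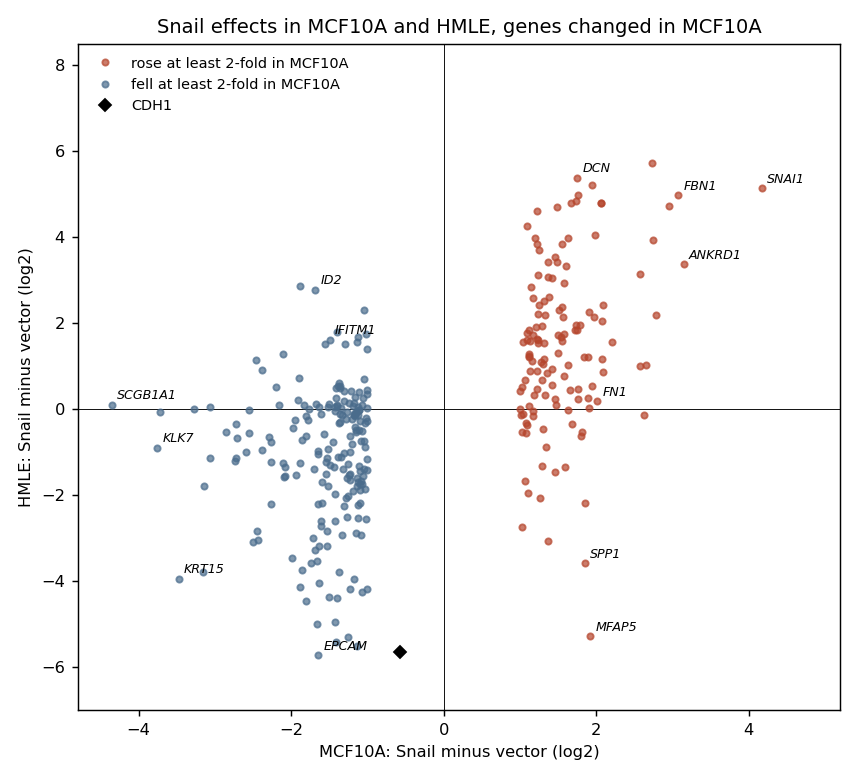
Difference in log2 level, Snail minus vector, in MCF10A (x axis) and HMLE (y axis) for the 329 genes changed at least 2-fold in MCF10A, with CDH1 added as a diamond at -0.57 and -5.64. FN1 and SCGB1A1 lie near 0 on the HMLE axis (0.18 and 0.10), and MFAP5, SPP1, ID2 and IFITM1 lie in the quadrants of opposite direction.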

How the data were processed

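RNA was profiled on Affymetrix HuGene 1.0 ST arrays. The deposited log2 values cover 33297 probe sets. They are RMA output of the authors, per the submitters' processing notes. The sources used here give no version of RMA, no genome build, and no word on whether the arrays were normalized jointly. Detection calls were not used, and RMA understates changes of dim genes. Here, 19460 probe sets with 1 symbol in the platform annotation were kept (1754 had several, 12083 were not listed), 19429 were matched to the RefSeq GRCh38.p14 gene table, and the brightest probe set stood for each of 18417 genes.

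limma 3.58.1 (R 4.3.3) was fitted to all 18 arrays with a mean for each of 6 groups, which left 12 residual degrees of freedom. The 18 include 3 arrays labelled MCF10A Twist whose labels their 9p21 genes do not bear out, which enter only the estimate of spread. Differences between lines were tested as a difference of effects in the same model. The 57 gene lists (916 of 988 entries measured) and the genes named were chosen with earlier results of these data known. Named were the core EMT genes, the 25 largest rises and falls, the 10 largest line differences each way and list members. Lists are described by counts and medians. The fit was tested on simulated data. Alternatives covered scaling, array weights, the variance model, probe set choice, a filter on dim genes, the arrays in the fit, a replicate block, thresholds and each array left out.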

Additional observations from a re-analysis of the deposited data

Results flagged for a closer look

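Groups of 3 arrays are too small for a test of outlying samples, and every value column was used. The results flagged here are therefore Snail minus vector effects that differed between MCF10A and HMLE by the limma test (adjusted p under 0.05). As said at the start, an effect of Snail and a difference between clones cannot be told apart. Values are Snail minus vector on the log2 scale, first in MCF10A, then in HMLE, followed by the MCF10A effect minus the HMLE effect.

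The 10 genes whose effect was most above that in HMLE rose or changed by less than 1 log2 unit in MCF10A and fell in HMLE. MFAP5, a microfibril gene, changed by 1.92 in MCF10A and -5.28 in HMLE, a difference of 7.20. IL1A (0.47 and -6.38) differed by 6.85, the long non-coding RNA gene UCA1 (-0.09 and -6.23) by 6.14, and MAL2 (-0.15 and -6.26) by 6.11. ITGB6 (-0.39 and -6.17) differed by 5.78, PNLIPRP3 (-0.64 and -6.15) by 5.52, SPP1 (1.85 and -3.58) by 5.43, DSC3 (-0.78 and -6.20) by 5.43, IL18 (0.22 and -5.04) by 5.26 and the P-cadherin gene CDH3 (-0.55 and -5.68) by 5.14.

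At the other end stood genes that rose in HMLE and stayed within 1 log2 unit in MCF10A. NID1, a basement membrane linker, changed by 0.16 in MCF10A and 6.32 in HMLE, a difference of -6.17. TMPRSS15 (-0.57 and 5.11) differed by -5.67, LIN7A (-0.22 and 5.35) by -5.57, and AK5 (0.88 and 6.29) by -5.41. The small nucleolar RNA genes SNORD114-3 (-0.51 and 4.72) and SNORD113-4 (-0.25 and 4.83) differed by -5.23 and -5.08. LRRTM3 (0.37 and 5.44) differed by -5.06, PRRX1 (-0.16 and 4.83) by -4.99, TFPI (0.19 and 5.15) by -4.97 and BGN (0.11 and 5.03) by -4.92.

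Differences given in the results were 5.07 for CDH1, 4.98 for KRT5, 4.19 for KRT14, 3.55 for ITGB4, 3.62 for LAMB3, 1.82 for FN1, 2.03 for FAP, -4.59 for COL1A2, -4.47 for ID2 and -3.11 for IFITM1. CD24 (0.02 and -3.13) differed by 3.15.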

How the results depend on the processing

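The number of genes changed at least 2-fold was 329 and became 918 with a limit of 1.5-fold. The number that passed by adjusted p alone was 4173 and became 2742 at an adjusted p under 0.01. Across the other alternatives the first count lay between 311 and 343 and the second between 3916 and 6180. Leaving out each array in turn gave 324 to 353 and 3203 to 3735 genes, and 1569 to 1637 genes with a different effect between lines (1587 with all arrays). CDH1 kept its direction and its call in all 15 alternatives, at -0.5956 to -0.5497 with an array left out and with adjusted p between 6.77e-05 and 0.0061, and its line difference ran from 5.0187 to 5.1623 with an array left out. Of calls by adjusted p, 47% were rises, against 56.6% after median centring, 53.9% after quantile normalization and 40.9% without Snail replicate 1. The 50 largest changes kept their calls in all 749 values tried. Among 475 named genes that passed in the main fit, 6722 values kept their call, 395 lost it and none changed direction. Named genes that did not pass in the main fit were not in this set, so gained calls do not appear in it. Of 114 list counts, 1569 values stayed within 1.5 times and 141 did not. Whether the replicate numbers pair the samples is not stated in the labels. Same-numbered Snail and vector arrays correlated at 0.335, 0.103 and 0.069 in their deviations from the group means. Differently numbered arrays ran from -0.25 to 0.167, and Snail replicate 2 correlated best with vector replicate 3 (0.167). With the number as a replicate block, 329 genes changed at least 2-fold and 4509 passed by adjusted p alone, and CDH1 was at -0.5678 (limma adjusted p = 0.000787).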

Other observations

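Several lists not described above held calls in both directions in MCF10A, where 10.7% of all genes rose and 12% fell. Among 33 axon guidance ligands and receptors 14 fell and 6 rose with Snail. The semaphorins SEMA6A and SEMA3A fell (-2.55 and -1.93 on the log2 scale), as did the ephrin receptor EPHA1 (-1.15), while SLIT3, a Robo ligand, rose by 1.2 and SEMA7A by 0.99. Of 22 unfolded protein and integrated stress response genes 4 rose and 6 fell (median 0.026). ASNS, asparagine synthetase, was lowest at -0.87, and the endoplasmic reticulum chaperone gene HSPA5 rose by 0.22. There were 2 rises when Snail replicate 1 or vector replicate 3 was left out. Matrix metalloproteinases were mixed, MMP2 rising by 0.91 and MMP28 falling by 1.09, with 3 rises and 4 falls of 16. Of 10 plasminogen and coagulation genes 2 rose and 4 fell, SERPINE2 rising by 1.46 and the thrombomodulin gene THBD falling by 1.11. Among 14 ABC transporters 3 rose and 3 fell.

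Other runs of neighbouring genes called the same way were UAP1, DDR2, CCDC190, RGS4, RGS5 and NUF2 on chromosome 1, 6 genes that rose, and TINF2, TGM1, RABGGTA, NOP9, DHRS1 and CIDEB on chromosome 14, 6 genes that fell. They were found by scanning the whole gene order after the values were seen, and no cause was tested.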
